A study of Mus musculus with 6 samples.

Results

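SR proteins and heterogeneous nuclear ribonucleoproteins (hnRNPs) are the 2 large families of RNA-binding proteins that select splice sites. Their genes were followed in microglia of mice in which the gene of the microRNA miR-137 was targeted for deletion, and of control mice. All rows of the deposited gene table whose symbol was Srsf with a number, or began with Hnrnp, were taken. These were 31 of 17459 rows, 11 Srsf and 20 Hnrnp genes. RNA sequencing had been done on 3 libraries of each genotype, from male C57BL/6J mice labelled as 8 weeks old. The knockout group (cKO) was Mir137loxP/loxP;Tmem119-CreERT2, in which both Mir137 alleles are flanked by loxP sites. The control group (cWT) was Mir137+/+;Tmem119-CreERT2, so both groups carried the Cre recombinase, which acts once tamoxifen is given and is driven by the microglial gene Tmem119. Tamoxifen had been injected on 7 days at 7 to 8 weeks of age. The labels name 4 mice in the isolation of microglia and do not say how they fall into the libraries, so a p-value here covers the spread among these libraries and nothing wider, and that spread may be technical.

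SR proteins carry an RNA recognition motif and a tail rich in arginine and serine. Bound to exons, they recruit the spliceosome and favour inclusion, and kinases of the SRPK and CLK families set their activity and place in the nucleus. hnRNPs coat nascent transcripts, often oppose SR proteins at the same exons, and also act in RNA export, stability and transport. Many genes of both families control their own level by splicing in an exon with a premature stop, which sends the transcript to nonsense-mediated decay.

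The mature strand of the targeted microRNA is shown (chromosome 3, 118433901 to 118433923, plus strand, GRCm38.p6, RefSeq). Its seed, bases 2 to 8 in capitals, sets which transcripts it can pair with.
mmu-miR-137-3p: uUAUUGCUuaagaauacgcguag
The match to that seed, AGCAATA, was searched on the sense strand of the longest annotated 3′ UTR of each tested gene. It was found in 6 of the 30 tested members (20%), and in 1330 of 13002 tested coding genes (10.2%). The members' 3′ UTRs had a median of 1304.5 bases and those of all the coding genes 1191.0. Those of the 6 members with a match had 1301 to 19419 bases, and a longer one has more chances to hold a match. The 19419 bases are those of Hnrnpr, with matches at positions 4296 and 6331, while the 3′ UTR of its principal transcript has 653 bases. The sites of the 4 members with a match continued by an A are printed with the match in capitals (GRCm38, the strand of the gene).
Srsf6 (chr2:162935314-162935338, plus): tctcagaccAGCAATAaattattca
Hnrnpa3 (chr2:75666927-75666951, plus): agctaaacaAGCAATAaaaggggga
Hnrnpdl (chr5:100034655-100034679, minus): ttataaagaAGCAATAatcaagaca
Hnrnpr (chr4:136344315-136344339, plus): atctgttgaAGCAATAatgatattt
Hnrnpk, Srsf1 and a further position in Hnrnpr hold the shorter match. Of the 6 members with a site, Srsf6 and Hnrnpr were called lower in cKO and Hnrnpk higher. Their median log2 fold change was -0.02, against 0.11 for members with no match. Of the 1330 tested coding genes with a match, 731 were called lower and 255 higher. Over all coding genes tested the medians were -0.51 with a match and 0.03 without. These medians and calls were not adjusted for transcript length, which the fold change followed across all genes, as described further on. The part of length in them was not tested. A match is a string of letters and not a measured target.

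Libraries held 16503817 to 17482042 estimated counts in cWT and 12068698 to 15212806 in cKO. In the authors' deposited table the base mean of Mir137 is 0, so its deletion was not checked. The microglial markers P2ry12, Csf1r and Cx3cr1 were abundant in both genotypes. P2ry12 was not called, while Csf1r (log2 fold change -0.75) and Cx3cr1 (-1.29) were called lower. Of 12 listed markers 5 were called higher and 6 lower, beside 35.6% and 36.5% of all genes. The largest falls were those of Olfml3 (-2.37) and Sall1 (-2.16), and the largest rise that of C1qa (1.53). Tmem119, the gene that drives the Cre recombinase, rose by 1.35. With offsets for length and GC content 2 of the 12 were called higher and 6 lower, beside 31.1% and 27.4%. Of 7 tested markers of monocytes and neutrophils, 5 were called higher and 1 lower, and their summed level went from 3768 to 4415 CPM in cWT to 10882 to 15393 CPM in cKO. These are short transcripts, with a median of 744.0 bases, and with offsets for length and GC content 2 were called higher and 4 lower (median -0.19 against 1.37). Summed endothelial and mural markers stood at 1114 to 1355 CPM in cWT and 1443 to 1747 CPM in cKO, with 6 of 8 called lower. Summed neuronal markers stood at 17.1 to 20.9 CPM in cWT and 23.6 to 31.4 CPM in cKO, and of the 9 listed none was at 0 in every library. Astrocyte markers spanned 391 to 405 CPM and 414 to 647 CPM, oligodendrocyte markers 285 to 295 CPM and 310 to 469 CPM, and markers of border-associated macrophages 777 to 980 CPM and 725 to 905 CPM, in cWT and cKO in turn. With the offsets 5 of 8 astrocyte markers were called higher and 0 lower (median 0.82, against 0.38 without them). Of 8 oligodendrocyte markers 5 were called higher and 1 lower, with or without the offsets. The same held for 2 and 0 of 4 tested neuronal markers, and for 3 and 1 of 6 border-associated macrophage markers. For endothelial and mural markers the offsets gave 1 higher and 5 lower. The part of these cell types in the results was not tested.

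Setting cKO against cWT addresses what targeting Mir137 does to microglial transcripts, and the loss of miR-137 itself was not checked. Neither splicing factor family moved as a block. Srsf3 and Srsf7, 2 small SR proteins that also act as adaptors in mRNA export, stood at 2.04 and 1.94 times their cWT level in cKO, while Srsf4, Srsf6 and Srsf11 fell. Among the hnRNPs, Hnrnpab and Hnrnpc rose by log2 fold changes above 0.6, while Hnrnpul1, Hnrnpd, Hnrnpul2 and Hnrnpu fell, with log2 fold changes from -0.89 to -0.61. Of the 10 SR genes that passed the filter on low counts, 4 were called higher, 3 lower, and 3 were not called. Of the 20 hnRNP genes 5 were called higher, 7 lower, and 8 were not called. Over all 13490 genes tested 72.1% were called in either direction, 35.6% higher and 36.5% lower (edgeR, Benjamini-Hochberg adjusted p under 0.05), so these shares are near the background. The median log2 fold change was 0.09 for SR genes and 0.11 for hnRNP genes, beside -0.02 for all genes. A called change of at least 2-fold was seen in 1 member, Srsf3, while 19.0% of all genes were called at least 2-fold higher and 19.6% at least 2-fold lower. In such bulk samples fewer cells of a type and less RNA per cell cannot be told apart.

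These directions are relative to TMM scaling, which takes most genes as unmoved. With scaling by library total and no further factor, the median of all genes went from -0.02 to -0.42, and increases made up 33.1% of all calls in place of 49.4%. On that scale 3 SR genes were called higher and 6 lower, and 2 hnRNP genes higher and 13 lower. Over all 13490 genes 3331 were then called higher and 6742 lower.

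**Figure D1:**
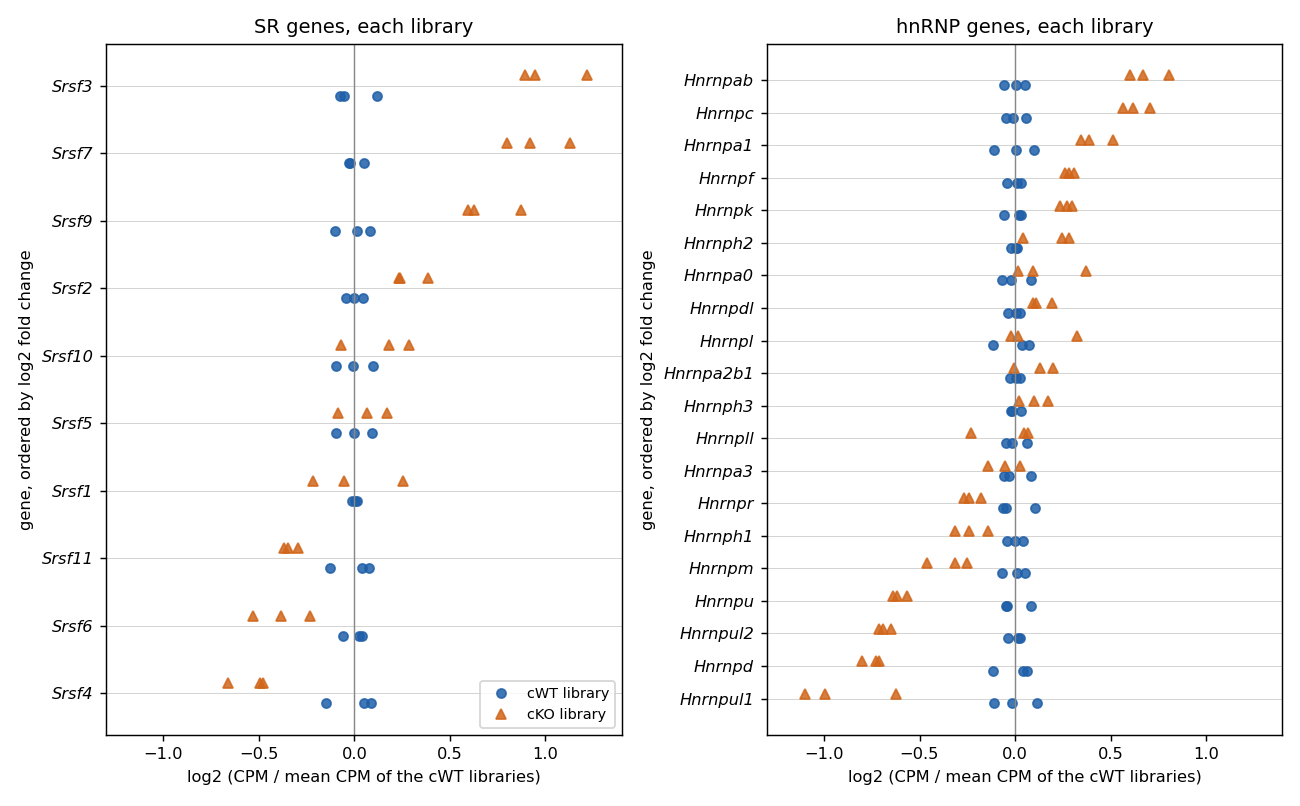
CPM of each SR gene (left) and hnRNP gene (right) in each library, as log2 of its ratio to the mean of the 3 cWT libraries; circles are cWT and triangles cKO libraries. The cKO libraries of Srsf3 and Srsf7 lie far to the right of the cWT libraries and those of Hnrnpul1 far to the left, while those of Srsf1, Srsf5 and Hnrnpa3 lie on both sides of the cWT mean.

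Srsf3, the smallest SR protein, lies on chromosome 17 (29032628 to 29043373, plus strand, GRCm38). Its level was 223, 198 and 195 CPM in the cWT libraries and 479, 381 and 395 CPM in the cKO libraries. Every cKO library was above every cWT library, as for 36.7% of all genes. Srsf3 rose by 1.03 in log2 units (SE 0.11, adjusted p = 9.2e-08). Srsf7, the SR protein closest to Srsf3 in its RNA recognition motif, lies on the same chromosome (80200080 to 80207307, minus strand). It stood at 114, 108 and 108 CPM in cWT and at 241, 208 and 191 CPM in cKO, again with no overlap. The rise was 0.96 in log2 units (SE 0.10, adjusted p = 9.98e-08). For both genes cKO replicate 1 was the highest library.

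Srsf9, a short SR protein (chromosome 5, 115327177 to 115333080), was measured at 87.1, 94.6 and 99.2 CPM in cWT and at 145, 142 and 171 CPM in cKO. It rose by 0.70 in log2 units (SE 0.10, adjusted p = 5.07e-06). Srsf2, which binds exonic enhancers and also acts in transcription elongation (chromosome 11, 116849901 to 116853094), had 144, 140 and 149 CPM in cWT and 170, 171 and 189 CPM in cKO. Its rise was smaller, 0.29 (SE 0.09, adjusted p = 0.00846), and was not called without cWT replicate 2 (adjusted p = 0.0547). Opposite-strand genes, Mfsd11 and Mettl23, share 21.7% and 22.6% of the bases of its transcript, and the sources used here give no strand setting for the counts.

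Srsf4, an SR protein with a long arginine and serine tail (chromosome 4, 131873617 to 131901706), stood at 45.9, 52.7 and 54.1 CPM in cWT and at 32.1, 36.1 and 36.5 CPM in cKO. It fell by 0.54 in log2 units (SE 0.11, adjusted p = 0.000211). The opposite-strand gene Gm12992 covers 67.9% of its transcript, and 5 of its 6 counts were not whole, so its level is uncertain. Srsf6 (chromosome 2, 162931528 to 162937121) had 172, 160 and 170 CPM in cWT and 142, 116 and 128 CPM in cKO. It fell by 0.38 (SE 0.10, adjusted p = 0.00187), with no overlap between the genotypes, as for 37.9% of all genes in this direction. Srsf11, an SR protein that binds splicing components at the intron end (chromosome 3, 158010473 to 158036639), had 93.1, 82.8 and 95.5 CPM in cWT and 73.6, 70.0 and 71.1 CPM in cKO. It fell by 0.34 (SE 0.09, adjusted p = 0.00392).

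The other SR genes gave no call. Srsf5, the most abundant SR gene in cWT, had 315, 277 and 295 CPM in cWT and 332, 278 and 309 CPM in cKO (adjusted p = 0.65). Srsf1, the founding member of the family, had 113, 112 and 111 CPM in cWT and spread from 96.6 to 134 CPM in cKO (adjusted p = 0.961). Srsf10, which represses splicing when it loses its phosphates, had 102, 89.0 and 94.8 CPM in cWT and 116, 108 and 90.6 CPM in cKO (adjusted p = 0.245). The genotypes overlapped for these 3 genes. Srsf12 had counts of 1, 2 and 1 in cWT and 2, 5 and 2 in cKO and did not pass the filter.

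The make-up of the SR counts shifted with these changes. Srsf3 made up 15.9%, 15.1% and 14.2% of the summed SR level in the cWT libraries and 25.7%, 23.6% and 23.6% in the cKO libraries. Srsf7 went from 8.05% ± 0.18 to 12.4% ± 0.85 (SD, n = 3 each). Srsf5 was the largest contributor in cWT at 21.6% ± 0.65 and second to Srsf3 in cKO at 17.8% ± 0.60. The share of Srsf6 was 12.2% ± 0.11 in cWT and 7.47% ± 0.27 in cKO. There were 3.37, 3.29 and 3.09 counts of Srsf3 for each count of Srsf6 in the cKO libraries, and 1.30, 1.23 and 1.15 in the cWT libraries. Such ratios within a library do not depend on scaling. They are shares of counts, to which longer transcripts give more. The summed SR level was 1365 ± 47.2 CPM in cWT and 1720 ± 128 CPM in cKO, but as a part of all counts it was 0.156% ± 0.004 and 0.150% ± 0.008. The summed hnRNP level was 3754 ± 60.5 CPM in cWT and 3826 ± 90.4 CPM in cKO. As a part of all counts the hnRNP genes held 0.430% ± 0.005 in cWT and 0.334% ± 0.008 in cKO.

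**Figure D2:**
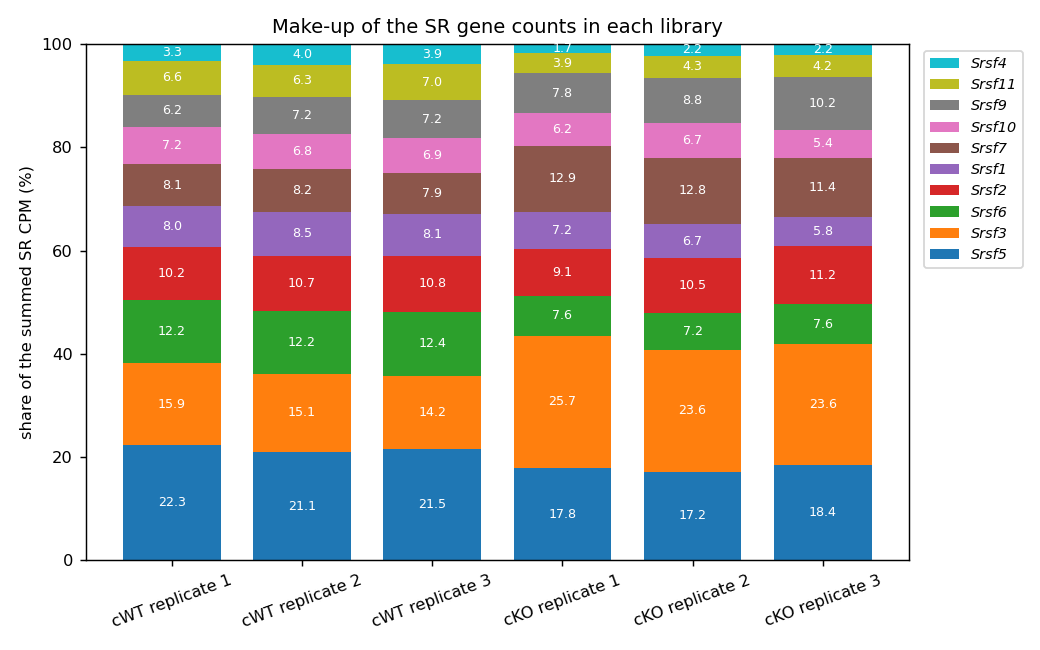
Share of each SR gene in the summed SR CPM (vertical axis, percent) of each of the 6 libraries (horizontal axis), stacked to 100%. Srsf3 (orange) holds 14.2% to 15.9% in cWT and 23.6% to 25.7% in cKO, and Srsf6 (green) holds 12.2% to 12.4% and 7.2% to 7.6%.

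Among the hnRNP genes called higher, Hnrnpab led. It encodes a protein of the A/B class that binds single-stranded nucleic acids (chromosome 11, 51600100 to 51606847). It stood at 174, 188 and 182 CPM in cWT and 275, 288 and 316 CPM in cKO, a rise of 0.69 in log2 units (SE 0.09, adjusted p = 2.37e-06). The opposite-strand gene Phykpl shares 34.1% of its transcript. Hnrnpc, which binds uridine tracts and keeps splicing factors off cryptic exons (chromosome 14, 52073377 to 52104028), had 126, 117 and 121 CPM in cWT and 198, 180 and 186 CPM in cKO. It rose by 0.63 (SE 0.09, adjusted p = 5.21e-06). Both genes had every cKO library above every cWT library, as had 36.7% of all genes.

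Hnrnpa1, a splicing repressor that shuttles between nucleus and cytoplasm (chromosome 15, 103240432 to 103246692), had 91.4, 97.8 and 84.4 CPM in cWT and 130, 119 and 116 CPM in cKO. It rose by 0.42 (SE 0.10, adjusted p = 0.000765). Its counts were not whole in any library, so its level is uncertain. The 2 most abundant members rose by less. Hnrnpk, which binds cytidine-rich RNA (chromosome 13, 58391142 to 58403343), had 499, 472 and 502 CPM in cWT and 579, 603 and 593 CPM in cKO (log2 fold change 0.27, SE 0.09, adjusted p = 0.0152). Hnrnpf, which binds guanosine tracts (chromosome 6, 117900324 to 117925622), had 405, 386 and 400 CPM in cWT and 482, 492 and 477 CPM in cKO (log2 fold change 0.28, SE 0.09, adjusted p = 0.00957). Without cWT replicate 2 neither was called, with adjusted p = 0.0916 for Hnrnpk and 0.0611 for Hnrnpf, and the number of hnRNP genes called higher dropped to 3. Hnrnpk was not called with no filter on low counts either (adjusted p = 0.0551).

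The largest fall was that of Hnrnpul1 (chromosome 7, 25721165 to 25754757), a relative of Hnrnpu with a part in the DNA damage response. Its level was 200, 214 and 235 CPM in cWT and 101, 109 and 140 CPM in cKO, with cKO against cWT at -0.89 in log2 units (SE 0.12, adjusted p = 1.7e-06). Hnrnpul2, its paralog (chromosome 19, 8820010 to 8834143), had 173, 179 and 180 CPM in cWT and 108, 110 and 113 CPM in cKO, at -0.69 (SE 0.09, adjusted p = 1.41e-06). Hnrnpu itself, a nuclear scaffold protein that ties RNA to chromatin (chromosome 1, 178321108 to 178337797), had 335, 333 and 366 CPM in cWT and 225, 221 and 233 CPM in cKO. It fell by 0.61 (SE 0.09, adjusted p = 9.45e-06). The genotypes did not overlap for these 3 genes, as for 37.9% of all genes in this direction, and Hnrnpul2 and Hnrnpu were called higher once length and GC were taken as offsets.

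Hnrnpd, which binds AU-rich elements and speeds the decay of cytokine mRNAs (chromosome 5, 99955935 to 99978938), had 103, 117 and 116 CPM in cWT and 67.7, 64.3 and 68.3 CPM in cKO. It fell by 0.75 (SE 0.09, adjusted p = 1.12e-06). Its paralog Hnrnpdl on the same chromosome was not called, at 98.5, 94.3 and 97.0 CPM in cWT and 111, 104 and 103 CPM in cKO (adjusted p = 0.188). For each count of Hnrnpd there were 1.57 to 1.68 of Hnrnpab in cWT and 4.07 to 4.63 in cKO. The principal transcripts have 6811 bases for Hnrnpd and 2370 for Hnrnpab. With these lengths and GC as offsets both genes were called higher, at 0.28 and 0.52. With median transcript lengths instead, Hnrnpd was called lower at -1.25 and Hnrnpab higher at 0.51. Hnrnpm (chromosome 17, 33646233 to 33686860) had 133, 140 and 144 CPM in cWT and 101, 111 and 117 CPM in cKO, at -0.34 in log2 units (SE 0.09, adjusted p = 0.00328). March2 shares 29.7% of its transcript on the same strand.

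Smaller falls were called for Hnrnph1 and Hnrnpr. Hnrnph1, which binds guanosine tracts as Hnrnpf does (chromosome 11, 50376990 to 50386528), had 255, 240 and 247 CPM in cWT and 224, 198 and 209 CPM in cKO (log2 fold change -0.23, adjusted p = 0.0294). Hnrnpr stood between 69.9 and 78.8 CPM in cWT and between 60.7 and 64.7 CPM in cKO (log2 fold change -0.23, adjusted p = 0.0392). Both calls are near the threshold. Hnrnph1 was not called without cWT replicate 1, 2 or 3 or cKO replicate 2 (adjusted p from 0.0555 to 0.14), nor with upper quartile scaling (0.0881). Hnrnpr was not called without those or without cKO replicate 3 (adjusted p from 0.0531 to 0.144), nor with the size factors of DESeq2 (0.0603), its Wald test (0.0724), upper quartile scaling (0.114) or offsets from the median transcript length (0.151).

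Members of the A class other than Hnrnpa1 and Hnrnpab gave no call. Hnrnpa2b1, which also sorts RNA into vesicles, had 277, 267 and 273 CPM in cWT and 313, 271 and 299 CPM in cKO (adjusted p = 0.29). Hnrnpa3 had 234, 213 and 216 CPM in cWT and 225, 213 and 200 CPM in cKO (adjusted p = 0.604), from counts that were not whole in any library. It was called lower with both kinds of offset for length and GC described further on. Hnrnpa0, which stabilises inflammatory mRNAs in macrophages, had 250, 259 and 278 CPM in cWT and 280, 265 and 339 CPM in cKO (adjusted p = 0.154). Hnrnpl, which binds CA repeats, had 155, 177 and 172 CPM in cWT and 166, 170 and 211 CPM in cKO (adjusted p = 0.333). Hnrnph2 had 86.1 to 87.9 CPM in cWT and 89.9 to 106 CPM in cKO (adjusted p = 0.0745). Hnrnpll and Hnrnph3 were the least abundant of the tested hnRNP genes, at 35.9 ± 1.37 and 19.2 ± 0.381 CPM in cWT and 35.1 ± 3.92 and 20.6 ± 1.07 CPM in cKO (n = 3 each), with no call for either. Genotypes did not overlap for 7 hnRNP genes that were higher and 7 that were lower in cKO, and for 4 and 3 of the tested SR genes. That held for 36.7% and 37.9% of all genes.

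Per kilobase of principal transcript, the highest levels in cWT were those of Hnrnpa3 (194 ± 10.2 CPM per kilobase), Srsf5 (194 ± 12.4), Hnrnpk (183 ± 6.02), Hnrnpf (175 ± 4.26) and Hnrnpa2b1 (166 ± 3.05). The first 3 lie within their spread of each other. In cKO Hnrnpk (221 ± 4.60 CPM per kilobase), Hnrnpf (213 ± 3.39) and Srsf5 (201 ± 17.7) came before Hnrnpa3 and Hnrnpa2b1. Srsf3 moved from rank 11 (78.5 ± 5.90 CPM per kilobase) to rank 6 (160 ± 20.1), and Hnrnpul1 from rank 13 to rank 19. These ranks rest on 1 annotated length per gene, which need not be the expressed one. That of Hnrnpa3, 1140 bases, includes no annotated 3′ UTR.

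Across all genes the fold change followed transcript length. The Spearman correlation across genes, which share the libraries and are not independent, was -0.71 over 13400 genes with a length, and it was -0.51 over the 30 members. With genes cut by length into 10 bins of 1340, the median log2 fold change went from 1.56 in the shortest bin to -1.42 in the longest, and the members covered a narrower span. Srsf9, with 1162 bases, rose by 0.70 where its bin had a median of 1.02. Hnrnpu, with 7640 bases, was at -0.61 where its bin had -1.42. Srsf3, with 2618 bases, lay in a bin with a median of 0.06, and Srsf7, with 2288 bases, in one with 0.37. Srsf4, with 2257 bases, fell in that same bin.

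Once length and GC content entered as offsets, 4 SR genes were called higher and 6 lower, and 6 hnRNP genes higher and 6 lower, beside 31.1% and 27.4% of all genes. Srsf3 stood at 0.76 (adjusted p = 1.32e-08), Srsf7 at 0.51 (adjusted p = 1.84e-06), Hnrnpab at 0.52 and Hnrnpc at 0.36, each still called higher. Srsf4, Srsf11, Srsf6 and Hnrnpul1 were still called lower, at -0.58, -0.29, -0.21 and -0.37. The calls of 5 members turned. Srsf9 and Srsf2, which are short, were then lower at -0.26 and -0.42, and the long Hnrnpu, Hnrnpd and Hnrnpul2 were higher at 0.53, 0.28 and 0.18. The calls of Hnrnpk, Hnrnpf, Hnrnpa1 and Hnrnpm were lost. A further 7 members gained a call. Hnrnpa3 had the largest value of any member, -1.25 (adjusted p = 5.09e-13). Its principal transcript, of 1140 bases, has no annotated 3′ UTR, while its longest annotated 3′ UTR has 4025 bases. Srsf5 at -0.91, Hnrnpa2b1 at -0.76 and Hnrnph3 at -0.30 were also called lower. Srsf1 at 0.72, Srsf10 at 0.36 and Hnrnpa0 at 0.29 were called higher. With the offsets the correlation with length was -0.085 over all genes and 0.59 over the members, so the members' values then went up with length. Which value stands nearer to the RNA in the cells was not tested.

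The offsets depend on the length assigned to a gene. An alternative chosen after seeing the data took the median length of a gene's annotated protein-coding transcripts in place of the principal one. Transcripts of other classes, such as targets of nonsense-mediated decay, were left out unless a gene had no coding one. Hnrnpd was then called lower at -1.25 (adjusted p = 2.21e-10), with an assigned length of 1603.5 bases in place of 6811. Hnrnpm was called lower at -0.68. Srsf9 and Srsf2 then gave no call, at 0.10 and 0.07. Hnrnpu and Hnrnpul2 were again called higher, at 0.68 and 0.30, and Hnrnpk and Hnrnpf were called lower, at -0.53 and -0.22. Hnrnpa3 was again called lower, at -0.59. The calls of Hnrnpa1 and Hnrnpr were lost.

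**Figure D3:**
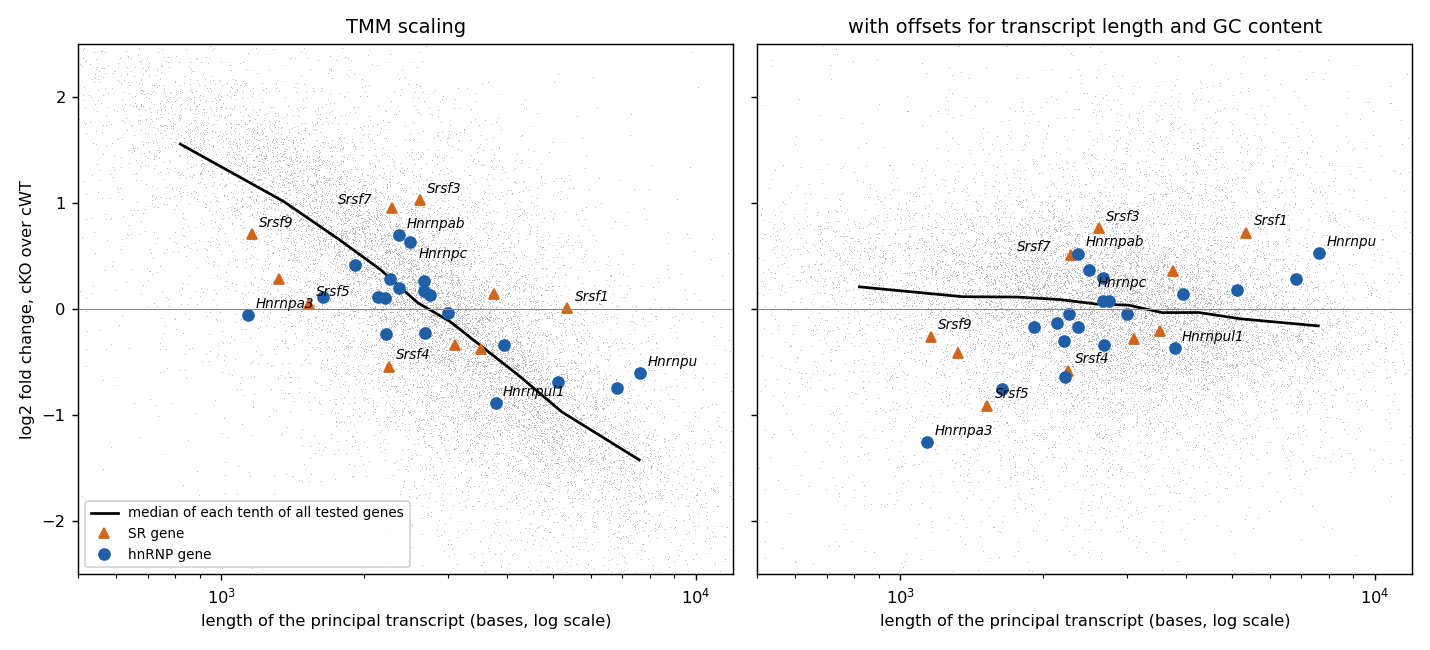
Log2 fold change (vertical axis) against length of the principal transcript in bases (horizontal axis, log scale), with TMM scaling (left) and with offsets (right). Grey dots are all tested genes, the black line joins the medians of the 10 length bins, triangles are SR and circles hnRNP genes. On the left the members slope less than the line, Srsf3 and Srsf7 lie above it, and Hnrnpu and Srsf1 lie above its long end; on the right the members slope upward.

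Of the 19 members called, 4 were called higher and 4 lower under each of 17 other settings of scaling, test, filter, offsets and libraries left out. The share of all genes that kept a call in this way is not given here. These counts therefore cannot be set against a background. Those higher were Srsf3 (log2 fold change from 0.63 to 1.11), Srsf7 (0.46 to 1.05), Hnrnpab (0.30 to 0.75) and Hnrnpc (0.19 to 0.69). Those lower were Hnrnpul1 (-1.28 to -0.35), Srsf4 (-0.94 to -0.43), Srsf11 (-0.78 to -0.28) and Srsf6 (-0.77 to -0.21). The falls of Hnrnpu and Hnrnpul2 turned with both kinds of offset. The fall of Hnrnpd turned to a called rise, and the rises of Srsf9 and Srsf2 to called falls, with the principal length alone. The rises of Hnrnpk and Hnrnpf turned to called falls with the median length alone.

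**Figure D4:**
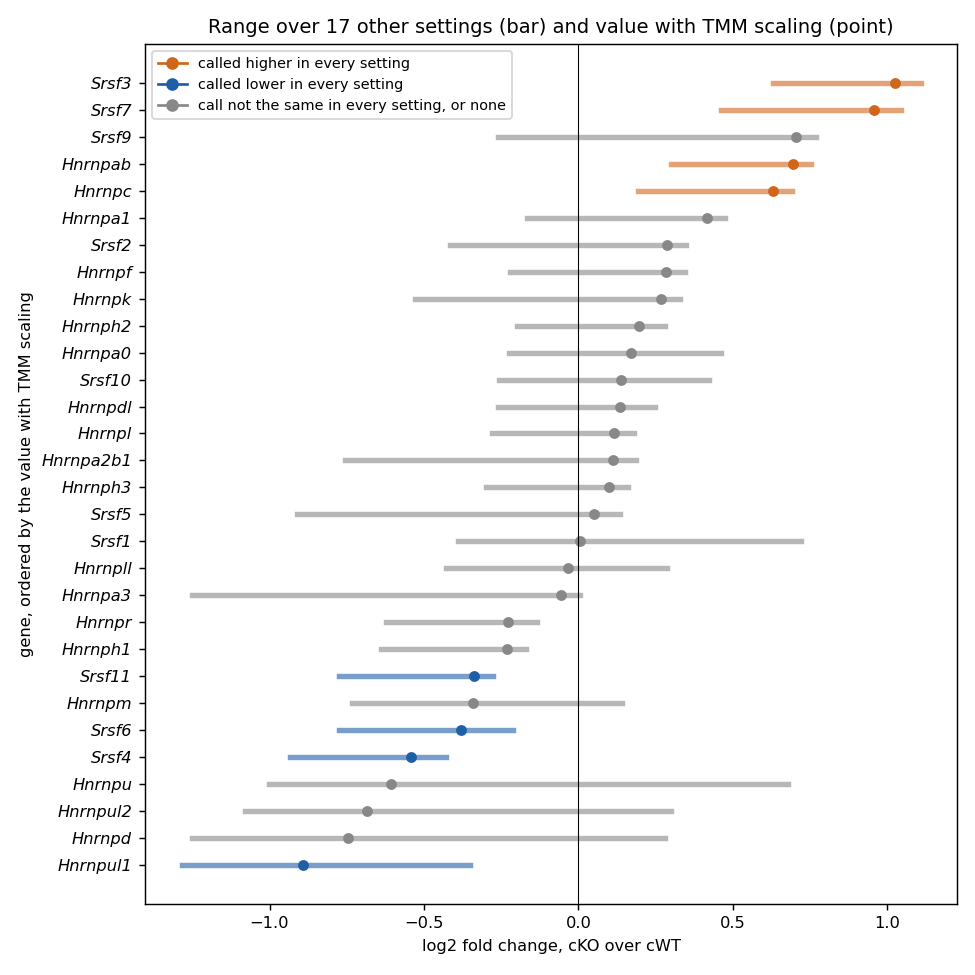
Log2 fold change (horizontal axis) of each tested member, ordered by its value with TMM scaling (point), with the range over 17 other settings (bar). Orange and blue bars, called the same way in each setting, stay on 1 side of 0: Srsf3, Srsf7, Hnrnpab and Hnrnpc above it, and Hnrnpul1, Srsf4, Srsf6 and Srsf11 below it.

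The families share a feature that the symbols did not select. A transcript annotated as a target of nonsense-mediated decay exists for 9 of the 10 tested SR genes (90%) and 10 of the 20 hnRNP genes (50%), against 28.3% of 13034 tested coding genes. A transcript with a retained intron is annotated for 8 SR genes (80%) and 14 hnRNP genes (70%), against 58.4%. The members also have more annotated transcripts, with medians of 7.5 and 8.0 against 5.0, and genes with more transcripts have more chances to hold such a class. The counts are per gene, so productive and decay-prone transcripts cannot be told apart in them.

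The bases before the start of Srsf3 and Srsf7, which rose, and of Srsf6, which fell, are printed to show what these promoters hold (250 bases upstream, RefSeq, GRCm38.p6). Capitals mark CCGGAAG, a core bound by ETS factors, and CCAAT, on either strand. GGGCGG, the GC box, was searched on both strands too and is not marked. No motif contains another.
Srsf3 (chr17:29032410-29032659, plus): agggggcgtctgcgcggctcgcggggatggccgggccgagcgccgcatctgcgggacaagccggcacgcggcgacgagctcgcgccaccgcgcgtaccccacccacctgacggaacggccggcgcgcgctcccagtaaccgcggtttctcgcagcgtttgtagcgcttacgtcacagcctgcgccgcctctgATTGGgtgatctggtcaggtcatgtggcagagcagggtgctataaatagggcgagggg
Srsf7 (chr17:80207306-80207555, minus): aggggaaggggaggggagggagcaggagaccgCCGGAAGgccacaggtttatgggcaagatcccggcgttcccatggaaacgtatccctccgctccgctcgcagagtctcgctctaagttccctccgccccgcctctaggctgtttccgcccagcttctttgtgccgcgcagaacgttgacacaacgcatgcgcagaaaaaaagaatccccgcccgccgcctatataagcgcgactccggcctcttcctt
Srsf6 (chr2:162931258-162931507, plus): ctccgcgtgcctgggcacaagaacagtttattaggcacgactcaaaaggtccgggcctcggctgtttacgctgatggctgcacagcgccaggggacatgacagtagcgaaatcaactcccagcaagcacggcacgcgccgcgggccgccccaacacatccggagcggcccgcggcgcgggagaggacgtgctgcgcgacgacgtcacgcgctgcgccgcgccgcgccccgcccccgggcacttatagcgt
At the first listed start, CCGGAAG was found for 4 of 11 SR genes and 2 of 18 hnRNP genes with a listed promoter, against 11.4% of 13058 genes of the count table. CCAAT was found for 3 SR and 12 hnRNP genes, against 36.0%. GGGCGG was found for 10 SR and 13 hnRNP genes, against 53.5%. Srsf3 and Srsf7, which both rose, share none of the 3 motifs. These are matches of letters, not binding sites.

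Other genes of the splicing machinery were taken from 4 lists. Of 26 SR-related proteins and SR kinases, 16 were called lower and 5 higher, with a median log2 fold change of -0.44, beside 36.5% lower and 35.6% higher over all genes. With the length and GC offsets 14 were lower and 8 higher (median -0.24), beside 27.4% and 31.1%. Srrm2 and Srrm1, large scaffold proteins of nuclear speckles and the exon junction, fell, with log2 fold changes of -2.88 and -2.10. Srrm2 went from 378 ± 5.79 to 51.2 ± 2.57 CPM (n = 3 each, adjusted p = 4.04e-13). With the offsets they stood at -1.37 and -1.88. Tra2b and Tra2a, which bind exonic enhancers beside SR proteins, rose by 0.93 and 0.66, and with the offsets Tra2b stood at 1.02 and Tra2a at -0.05. The kinases Clk1 and Clk4, named after their values were seen, rose by 0.65 and 0.53 and were not called with the offsets (adjusted p = 0.138 and 0.382). Of their relatives, Clk3 rose by 0.37 and stood at 0.54 with the offsets, and Clk2 was called lower at -0.38 and at -0.52 with the offsets.

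Of 35 other nuclear RNA-binding proteins, 21 were called lower and 8 higher (median -0.50), and 19 lower and 7 higher with the offsets (median -0.28). The shares over all genes are those given for the first list. Raly, which resembles Hnrnpc in sequence, rose by 1.23, from 139 ± 4.45 to 326 ± 30.4 CPM, and stood at 0.88 with the offsets. Rbm3, a cold-inducible protein, rose by 1.95 and stood at 0.71 with the offsets. Khsrp, which promotes mRNA decay and microRNA processing, stood at -1.68, and Qk, a splicing regulator of glia, at -1.59, both called lower. With the offsets Khsrp stood at -0.96 and Qk at -0.36.

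In the core spliceosome 20 of 38 genes were called higher and 10 lower (median 0.40), and 18 higher and 9 lower with the offsets (median 0.16). Over all genes 35.6% were higher and 36.5% lower. Snrpe and Snrpf, subunits of the Sm ring of the small nuclear ribonucleoproteins, rose by 2.30 and 2.16, whereas Prpf8, the protein at the catalytic centre, fell by 1.81 and Sf3a2 by 1.24. With the offsets these 4 stood at 0.47, 0.57, -0.52 and -1.14. Of 15 genes of nonsense-mediated decay and the exon junction, 9 were called lower and 5 higher (median -0.48), beside the same shares over all genes. The decay kinase Smg1 fell from 224 ± 14.0 to 34.5 ± 3.75 CPM (n = 3 each) and the nuclease Smg6 fell by 1.45, while the junction subunits Magoh and Rbm8a rose by 1.87 and 1.10. With the offsets 4 of these 15 were called higher and 5 lower (median -0.09), Smg1 stood at -0.97 and Smg6 at -0.38, and Magoh, at 0.14, gave no call (adjusted p = 0.161). The lists have median transcripts of 4258.5, 3110.0, 2111.0 and 3218.0 bases in the order given.

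The authors' deposited table, made with DESeq2, gives 4 SR genes higher and 3 lower, and 5 hnRNP genes higher and 6 lower, at its own adjusted p under 0.05. It sets cKO against cWT in the same series of 6 samples and is not independent. Its share of calls over all genes is not given here, so these counts have no background beside them. In the authors' deposited table Srsf3 stands at a log2 fold change of 1.03, Srsf7 at 0.96 and Hnrnpul1 at -0.89.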

How the data were processed

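RNA sequencing of 3 cKO and 3 cWT libraries was used, grouped by sample title. The authors deposited estimated counts per gene symbol; the submitters' processing notes list STAR 2.7.9a, RSEM, DESeq2, GRCm38 and mm10 but not what each was used for. Between 5.5% and 5.85% of values per library were not whole, and all were rounded. The second deposited table holds, per the file headers, a base mean (a scaled signal), log2 fold changes with standard errors, a Wald score, p-values and adjusted p-values.

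All 13490 genes kept by filterByExpr (minimum count 10) of 17459 entered edgeR (4.0.16, under R 4.3.3) and its quasi-likelihood test (TMM, robust, two-sided, genotype as the only term), with Benjamini-Hochberg adjustment over all of them and a threshold of 0.05. CPM, as edgeR defines it, used library sizes with TMM factors. Standard errors come from the test statistic. Lengths come from GENCODE M21 (GRCm38), as the middle length of the best-ranked principal transcripts, for 99.3% of tested genes. Offsets were per-library splines (5 degrees of freedom) of log2 CPM on log2 length and GC. The test was run on simulated data first. DESeq2 1.42.0 and limma-voom 3.58.1 were alternatives. Counts of reads without molecular identifiers give counting error only. Every tested member was named; from each pathway list the rule took the 2 largest called increases and decreases among genes whose average log2 CPM reached 4. The members and lists were chosen with earlier results of these data known. The replicate numbers were not used to pair the samples in the main fit.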

Additional observations from a re-analysis of the deposited data

How the results depend on the processing

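Of the 17 alternatives, 16 were planned and the offsets with the median transcript length of each gene were chosen after seeing the data. The replicate block gave 4 SR genes higher and 3 lower and 7 hnRNP genes in each direction, with all 19 calls the same way. Same-numbered samples correlated at 0.099, 0.034 and 0.088, each the best for its library. Library size alone gave 6 SR genes lower and 2 hnRNP genes higher and 13 lower, with medians of -0.30 and -0.29. That setting called 6742 of all 13490 genes lower and 3331 higher. The offsets for transcript length and GC content gave 6 SR genes lower and medians of -0.24 (SR) and -0.050 (hnRNP). The hnRNP median was 0.17 with upper quartile scaling, 0.062 with no filter on low counts and -0.0021 with the median-length offsets.

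Leaving out 1 library gave 3 to 5 SR genes higher, 3 lower in each case, 3 to 6 hnRNP genes higher, 5 to 7 lower, an SR median of 0.02 to 0.19 and an hnRNP median of 0.069 to 0.12. It turned uncalled values of Srsf5 (-0.015 to 0.13), Hnrnpa3 (-0.10 to 0.0031), Srsf1 (-0.14 to 0.12) and Hnrnpll (-0.081 to 0.073).

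Other signs turned as follows. Library size alone put Hnrnpk at -0.12, Hnrnpf -0.11, Srsf5 -0.34, Hnrnpa2b1 -0.28, Hnrnpa0 -0.23, Hnrnpl -0.28, Srsf2 -0.11, Srsf1 -0.39, Hnrnpdl -0.26, Srsf10 -0.26, Hnrnph2 -0.20 and Hnrnph3 -0.29. The length and GC offsets put Hnrnpf at -0.050, Hnrnpu 0.53, Srsf5 -0.91, Hnrnpa2b1 -0.76, Hnrnpl -0.13, Srsf2 -0.42, Hnrnpul2 0.18, Hnrnpm 0.14, Srsf9 -0.26, Hnrnpa1 -0.17, Hnrnpd 0.28, Hnrnph2 -0.17 and Hnrnph3 -0.30. The median-length offsets put Hnrnpk at -0.53, Hnrnpf -0.22, Hnrnpu 0.68, Srsf5 -0.48, Hnrnpa2b1 -0.35, Hnrnpul2 0.30, Hnrnpll 0.29 and Hnrnph3 -0.037. Upper quartile scaling put Hnrnpa3 at 0.0057 and Hnrnpll at 0.026, and Srsf1 stood at -0.0088 with limma-voom, -0.037 with no filter and -0.0053 with the block. The cause was not tested. Of the other values, 426 kept direction and side of the threshold, 18 passed it and 23 no longer did. Srsf12 was too shallow to test.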
